A study of Mus musculus with 17 samples.

Results

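The miR-30 family was measured here as 5 mature mouse miRs, mmu-miR-30a, mmu-miR-30b, mmu-miR-30c, mmu-miR-30d and mmu-miR-30e, chosen by name as the guide strands of the family, out of 569 miRs on the array. All 5 were among the 162 miRs that were detected, that is, that reached a normalized intensity of 200 in at least 1 of the 17 samples. A miR (microRNA) is a short RNA that guides a silencing complex to matching messenger RNAs, mostly through its seed, bases 2 to 8 from the 5′ end. The miR-30 family is known for its abundance in kidney, in tubule epithelium and in podocytes of the glomerulus, and members with a common seed can share targets. The RNA was taken from whole kidneys, so that the values do not say in which cells a member was present, and fewer cells of a type and less RNA per cell cannot be told apart.

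The kidneys came from wild-type mice, given as C57/BL6 in the sample labels and C57BL/6J in the methods, that were 10 to 12 weeks old. The labels describe the mice as female and the methods as male. The IRI group had 30 minutes of unilateral warm ischemia followed by reperfusion, the sham group had sham surgery, and both were sampled on 8 days, namely 1, 3, 5 and 7 in the first week and 10, 14, 21 and 30 later. A single naive pool from unoperated mice was also measured. Each of the 17 samples was a pool of 3 mice, with 1 pool per surgery and day, so that no day had a replicate and the 8 days stand in for replicates of a surgery. On 8 arrays the IRI pool of a day, labelled with the dye Cy3, was hybridised with the sham pool of that day, labelled with Cy5. The dyes were never swapped, so the surgeries and the dyes cannot be told apart in a mean ratio.

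The sequences are shown because they divide the 5 members into the subgroups that the day-to-day values are compared with below. They are the array's own target sequences, 5′ to 3′, with the seed in capitals. Those of miR-30a, miR-30c and miR-30e were identical to the mature sequences in the RefSeq table. Those of miR-30b and miR-30d matched no sequence in that table, which lacked entries for Mir30b and Mir30d.
miR-30a: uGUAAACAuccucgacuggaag
miR-30d: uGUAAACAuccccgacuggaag
miR-30e: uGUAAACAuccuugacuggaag
miR-30b: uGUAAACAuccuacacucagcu
miR-30c: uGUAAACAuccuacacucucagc
miR-384-5p: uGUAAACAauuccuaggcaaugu
The last of these, miR-384-5p, is not named as a family member but was the sole other miR among the 569 with the same seed. It was above background in 0 of 8 IRI pools and 1 of 8 sham pools.

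All 5 members had the seed GUAAACA, and their differences lay outside it. Counted from 1 at the 5′ end, miR-30a and miR-30d differed by U12C, miR-30a and miR-30e by C13U, and miR-30d and miR-30e by C12U and C13U. miR-30b and miR-30c shared their first 18 bases, and differed at 4 of the 22 bases compared by position, since miR-30c is 1 base longer. Between the 2 sets, the number of differences was between 5 and 8. Probes for miR-30a, miR-30d and miR-30e therefore had targets that differed by 1 or 2 bases, and whether each probe told these targets apart was not tested.

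The places of the genes divide the family another way. In the GRCm38.p6 assembly, the hairpin Mir30a (chr1:23272269-23272339, 71 bases, plus strand) lay 19361 bases from Mir30c-2 (chr1:23291701-23291784). Mir30c-1 (chr4:120769534-120769622, minus strand) lay 2983 bases from Mir30e (chr4:120772606-120772697), both within the span of the protein-coding gene Nfyc, a subunit of a CCAAT-binding transcription factor. Mir30b (chr15:68337415-68337510) lay 3697 bases from Mir30d (chr15:68341208-68341289). Each genomic pair thus joins a member of one sequence set with a member of the other, and 1 array probe reads the mature miR-30c of both its hairpins.

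The mean IRI/sham ratio passed the test as lower for miR-30d, and for the other members it did not pass. Since the dyes were never swapped, such a mean ratio cannot be assigned to the surgery rather than the dye. The mean IRI/sham ratio of miR-30d over the 8 days was -0.34 on the log2 scale (SE 0.10, 95% confidence interval -0.56 to -0.11, n = 8 arrays), which is 0.792 times the sham level, with an adjusted p of 0.033 by limma. It was 1 of 5 members to pass. The background was 59 of 162 detected miRs that passed in either direction, or 36.4%, and 29 that passed as lower, or 17.9%. In this fit 1 of 5 members is thus close to the share over all detected miRs, a share that moved with the days left out. The median of the mean ratio was -0.32 over the 5 members and -0.04 over all 162 miRs, and 4 of the 5 members lay below 0.

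**Figure D1:**
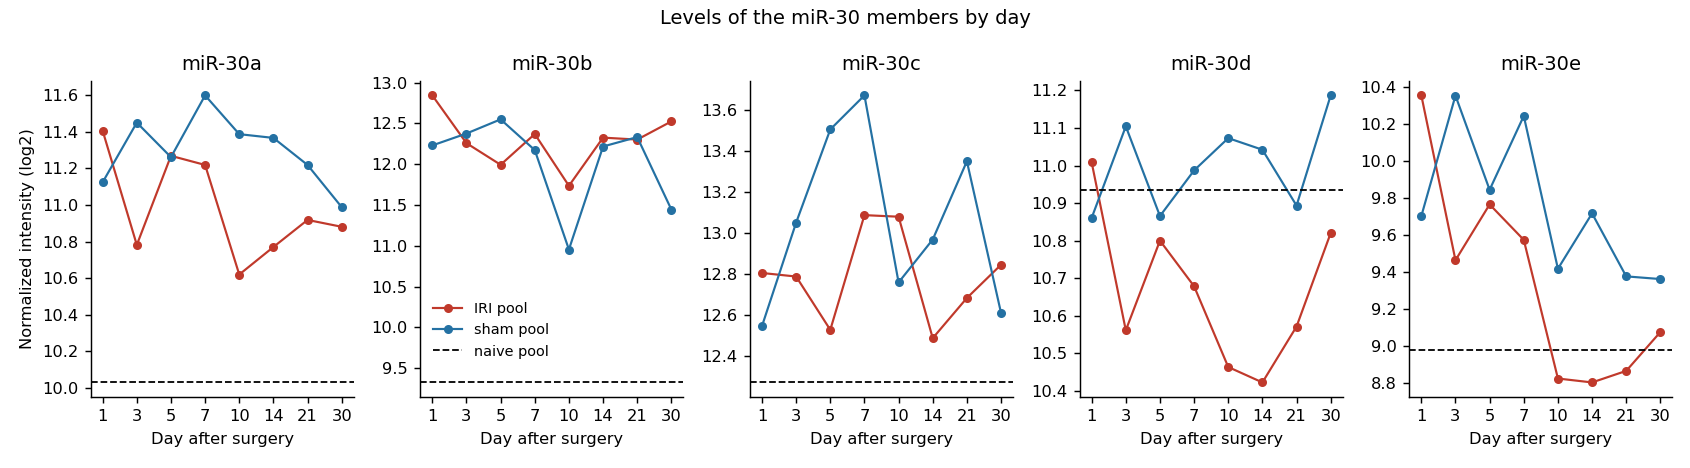
Normalized log2 intensity of each miR-30 member (vertical axis, a separate scale per panel) on each day after surgery (horizontal axis), for the IRI pools (red), the sham pools (blue) and the naive pool (dashed line). The IRI pool of miR-30d is above the sham pool on day 1 and below it on the 7 later days, and the IRI level of miR-30e is lowest on days 10, 14, 21 and 30.

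The values of miR-30d show this pattern day by day. Its normalized log2 intensity in the IRI pools ran from 10.42 on day 14 to 11.01 on day 1, with a median of 10.63, and in the sham pools from 10.86 on day 1 to 11.19 on day 30, with a median of 11.01. The ratio was 0.15 on day 1 and below 0 on the other 7 days, between -0.07 on day 5 and -0.62 on day 14. The IRI pool was thus lower in 7 of 8 comparisons on the same array, while the ranges of both surgeries overlapped because of the high IRI value of day 1. An exact two-sided sign-flip permutation test of the 8 ratios gave p = 0.0234, unadjusted, where 0.00781 is the smallest that 8 ratios allow. The call rested on most days at once: it was kept without day 1 (-0.40, adjusted p = 0.0122) and without day 5 (-0.37, 0.0276), and lost without any 1 of days 3, 7, 10, 14, 21 and 30, with values between -0.34 and -0.30 and adjusted p between 0.054 and 0.0779 by limma.

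miR-30a and miR-30e, the nearest relatives of miR-30d in sequence, had mean ratios of like size with a wider spread over days. The normalized log2 intensity of miR-30a ran from 10.62 (day 10) to 11.41 (day 1) in the IRI pools, with a median of 10.90, and from 10.99 (day 30) to 11.60 (day 7) in the sham pools, with a median of 11.31. That of miR-30e ran from 8.80 (day 14) to 10.36 (day 1) after IRI, with a median of 9.27, and from 9.36 (day 30) to 10.35 (day 3) after sham surgery, with a median of 9.71. The ranges of both surgeries overlapped for both miRs, and the highest IRI value of each was that of day 1. For miR-30a the mean log2 ratio was -0.32 (SE 0.12, adjusted p = 0.0758 by limma, exact permutation p = 0.0469 unadjusted), with values from -0.77 on day 10 to 0.28 on day 1 and 6 of 8 below 0. For miR-30e it was -0.41 (SE 0.17, adjusted p = 0.0854 by limma, exact permutation p = 0.0625), with values from -0.91 on day 14 to 0.65 on day 1 and 7 of 8 below 0. Day 1 stood on the other side of 0 from most later days for all 3. Without day 1, the mean ratio passed for miR-30a (-0.40, adjusted p = 0.0279), miR-30d and miR-30e (-0.56, 0.0112), by limma over 7 arrays. This omission was looked at after day 1 was seen to stand apart, and it was the only 1 of the 8 single-day omissions that gave a call for miR-30a or miR-30e, with adjusted p up to 0.172 and 0.199 in the others. The authors' processed values also gave a call for miR-30a (-0.45, adjusted p = 0.0308) but not for miR-30e (-0.50, 0.0785). Subtraction of the empty-spot median gave one for miR-30e (-0.61, 0.0249) but not for miR-30a (-0.36, 0.0671), by limma. Median scaling, which moves the median of all detected miRs to -0.29, gave both (-0.71, 0.0167 for miR-30a and -0.63, 0.035 for miR-30e).

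miR-30b and miR-30c had ratios on both sides of 0 over the days. The normalized log2 intensity of miR-30b ran from 11.73 to 12.84 in the IRI pools, with a median of 12.31, and from 10.95 to 12.55 in the sham pools, with a median of 12.22. That of miR-30c ran from 12.49 to 13.09 after IRI, with a median of 12.80, and from 12.55 to 13.67 after sham surgery, with a median of 13.01. The ranges overlapped for both, and for both the sham pools spread more widely than the IRI pools. The log2 ratio of miR-30b ran from -0.56 on day 5 to 1.08 on day 30, with 5 of 8 days above 0, among them 0.61 at day 1 and 0.78 at day 10. Its mean was 0.26 (SE 0.18, 95% confidence interval -0.14 to 0.66, adjusted p = 0.287 by limma). miR-30c was below 0 on 5 of 8 days, down to -0.98 on day 5, and reached 0.32 on day 10. Its mean was -0.27 (SE 0.16, 95% confidence interval -0.64 to 0.10, adjusted p = 0.231 by limma). These intervals leave room for a mean change in either direction. With each channel scaled to its median in place of loess, which moves the median of all detected miRs to -0.29, miR-30b turned to -0.26 and miR-30c to -0.87 (adjusted p = 0.0121 by limma). Relative to that median they lay at 0.03 and -0.59. By the same scaling miR-30d stood at -0.69 (adjusted p = 0.0106 by limma), which is -0.40 relative to the median, against -0.30 with loess.

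The highest ratios of miR-30b came on days with low sham values. Its sham log2 intensity was 10.95 on day 10 and 11.44 on day 30, while the other 6 sham pools lay between 12.17 and 12.55. The IRI pool of day 10, at 11.73, was the lowest of the 8 IRI pools as well, while that of day 30, at 12.52, was the second highest. Likewise, the ratio of miR-30c was above 0 on days 1, 10 and 30, and these were the 3 days with its lowest sham levels, between 12.55 and 12.76, against 12.97 to 13.67 on the other 5 days. The sham level is the denominator of the ratio, so that high ratios on days of low sham values are partly built in. Before normalization, the sham channels of days 10 and 30 were the dimmest for every member and for miR-21. Their scanner means were 953 and 903 for miR-30a, and 1361 and 1380 for miR-21.

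**Figure D2:**
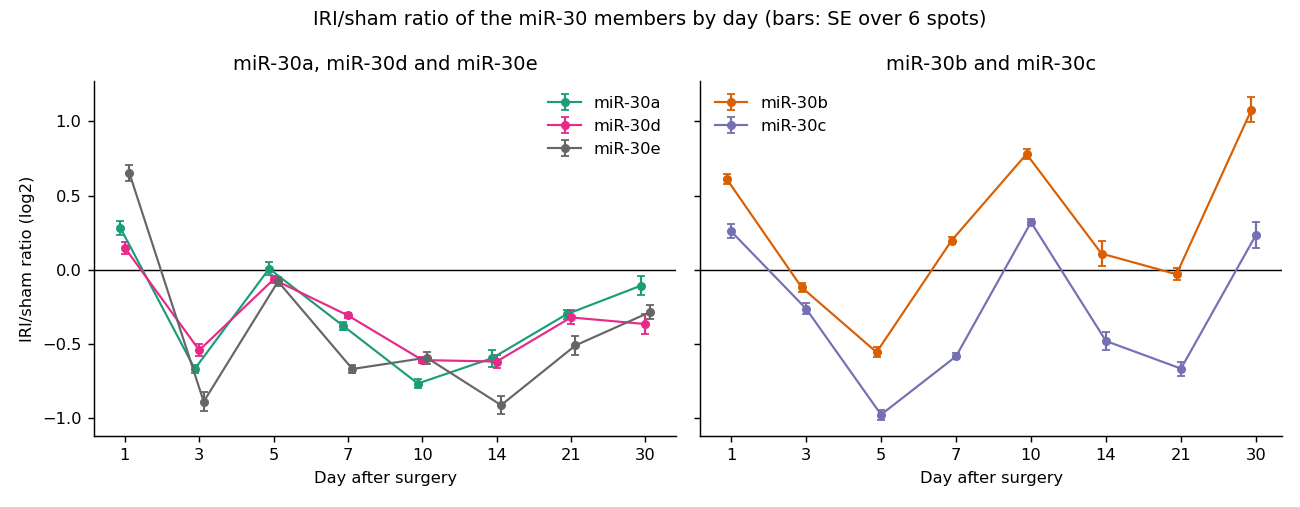
Log2 IRI/sham ratio (vertical axis) on each day after surgery (horizontal axis), for miR-30a, miR-30d and miR-30e on the left and miR-30b and miR-30c on the right, with bars for the SE over 6 spots. All 5 members lie above 0 on day 1, and on day 10 the left set lies between -0.77 and -0.59 while the right set lies between 0.32 and 0.78.

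The spread between days was larger than that between spots. Each miR was printed as 6 spots, whose SD on the log2 ratio was between 0.046 and 0.212, and 36 of the 40 member ratios lay more than 2 standard errors of the spots from 0. The SD of the ratio over days was between 0.27 for miR-30d and 0.53 for miR-30b. The spots measure the array only, and say nothing of the spread between pools of mice.

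By day, all 5 members were above 0 on day 1, with a mean log2 ratio of 0.39, and all 5 below 0 on days 3 and 21, with means of -0.50 and -0.37. The loess step sets the centre of each array's ratios near 0, so these are shifts relative to the other miRs of the array. On day 5 the sets differed, with a mean of -0.05 over miR-30a, miR-30d and miR-30e and of -0.77 over miR-30b and miR-30c. On day 10 it was the reverse, with -0.66 and 0.55. Single days have no replicate, so these are values without a test.

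**Figure D3:**
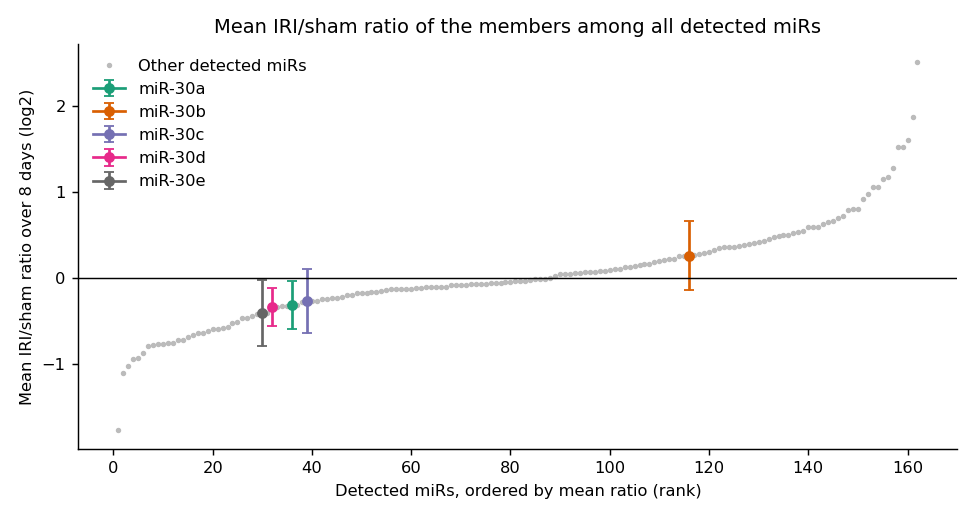
Mean log2 IRI/sham ratio over 8 days (vertical axis) of the 162 detected miRs, ordered from lowest to highest (horizontal axis, rank), with the 5 miR-30 members in colour and 95% confidence intervals from limma for them. miR-30a, miR-30c, miR-30d and miR-30e lie between -0.41 and -0.27 and miR-30b at 0.26, and the interval of miR-30b and that of miR-30c include 0.

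The 4 pairs of members that resemble each other most in sequence were the 4 whose ratios were correlated past the threshold over the 8 arrays. Within miR-30a, miR-30d and miR-30e, Pearson's r over the 8 arrays was 0.95 for miR-30a with miR-30d, 0.90 for miR-30a with miR-30e and 0.91 for miR-30d with miR-30e. Each had an adjusted p of 0.00686 by exact permutation of the pairings over 10 pairs. For miR-30b with miR-30c, r was 0.90 (adjusted p = 0.00856, exact permutation, n = 8). The raw p of these pairs was between 0.000794 and 0.00342. The other 6 pairs, which join the sets, had r between -0.10 and 0.29 and adjusted p of 0.995 by the same exact permutation. The genomic neighbours were among them, with r of -0.00256 for miR-30a with miR-30c, 0.29 for miR-30c with miR-30e and -0.10 for miR-30b with miR-30d. With median scaling in place of loess, the 4 close pairs had r between 0.94 and 0.98 and the 6 others, genomic neighbours included, between 0.55 and 0.67, with adjusted p of 0.139 to 0.158 for the latter by exact permutation. The difference between the sets of pairs was itself not tested.

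Ranks gave a weaker picture of the same pairs. Spearman's rho was between 0.76 and 0.83 for the 4 close pairs, with unadjusted exact permutation p between 0.0154 and 0.0368 (n = 8), and none passed after adjustment over 10 pairs (0.0769 to 0.0919). For the other 6 pairs rho lay between -0.29 and 0.17. With median scaling all 4 close pairs passed by rho (adjusted p of 0.00397 to 0.0114, exact permutation), and the other 6 had rho between 0.45 and 0.79, 3 of them with an adjusted p of 0.0525. Without day 10, 1 close pair passed, miR-30a with miR-30e (0.0278), and in the authors' values none did. After the 2 arrays farthest from the median were left out, r was 0.88 for miR-30a with miR-30d, 0.99 for miR-30a with miR-30e, 0.60 for miR-30d with miR-30e and 0.85 for miR-30b with miR-30c. The other 6 pairs then had r between -0.50 and 0.56, the highest being miR-30b with miR-30e, close to the 0.60 of miR-30d with miR-30e. In the authors' processed values all 4 pairs passed again, with r between 0.86 and 0.94. There, however, the relation among miR-30a, miR-30d and miR-30e rested on days 1 and 5, without which r was 0.45, 0.42 and 0.09, while that of miR-30b and miR-30c did not, with 0.89 without days 5 and 30. By the same omission in those values the other 6 pairs had r between -0.25 and 0.63, so that miR-30b with miR-30e, at 0.63, stood above the 3 pairs of miR-30a, miR-30d and miR-30e. For comparison, the median r over all 13041 pairs of detected miRs was 0.01, and 0.859% of them had r of 0.9 or more. All points share their arrays, dyes and normalization.

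**Figure D4:**
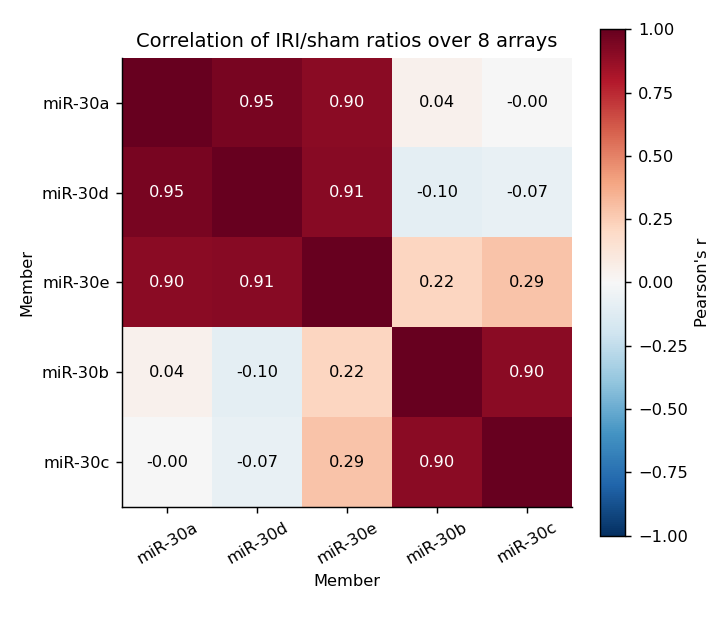
Pearson's r between the log2 IRI/sham ratios of each pair of miR-30 members over 8 arrays (colour, from -1 to 1, and printed value), with both axes ordered by sequence set. The 4 pairs within a set have r between 0.90 and 0.95, and the 6 pairs across sets between -0.10 and 0.29.

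With time after IRI, miR-30e fell. Its log2 intensity in the IRI pools was 10.36, 9.46, 9.77 and 9.57 on days 1, 3, 5 and 7, followed by 8.83, 8.80, 8.87 and 9.08 on days 10, 14, 21 and 30. All 4 later pools were thus below all 4 earlier ones. The fitted slope was -0.30 per doubling of the day (SE 0.07, 95% confidence interval -0.45 to -0.14, adjusted p = 0.0362 by limma, exact permutation p = 0.0061 unadjusted, n = 8). It was the 1 member called of 5, where 14 of 162 miRs, or 8.64%, passed in either direction and 7, or 4.32%, as falling. The call was kept without day 10 or day 30 and lost without any other single day, with slopes between -0.33 and -0.24 and adjusted p up to 0.249 without day 1. It was also lost on a scale of days in place of log2(day) (adjusted p = 0.226 by limma).

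Markers of cell types changed over the same IRI pools, where 4.32% of all detected miRs passed as rising and 4.32% as falling. Of the 6 detected miRs listed for tubule epithelium 3 fell, miR-200a (-0.48 per doubling of the day), miR-200b (-0.18) and miR-429 (-0.37), and the median slope of the 6 was -0.27. The others, miR-192, miR-194 and miR-200c, did not pass. Of 5 smooth muscle and fibroblast miRs 2 rose, miR-199a-3p (0.41) and miR-214 (0.46), while miR-143, miR-145 and miR-199a-5p did not pass. The median slope of these 5 was 0.21. Of 3 detected leukocyte miRs 1 rose, miR-150 (0.42), while miR-223 (0.17) and miR-155 (-0.16) did not pass. Of 2 detected erythroid miRs 1 fell, miR-451 (-0.56), and miR-486 did not pass. The endothelial miR-126-3p did not pass (-0.11). The part of these changes in the slope of miR-30e was not tested.

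The sham pools did not show that this fall was particular to IRI. The sham slope of miR-30e was -0.13 (SE 0.08, adjusted p = 0.596 by limma), and the slope of its IRI/sham ratio, which tests the difference of both, was -0.17 (SE 0.10, 95% confidence interval -0.41 to 0.06, adjusted p = 0.348). For the other 4 members the IRI slope lay between -0.10 and -0.01 with adjusted p from 0.353 to 0.947. With median scaling, where the median over all miRs was -0.05, these slopes were between -0.21 and -0.15 with adjusted p from 0.184 to 0.285, and that of miR-30e was -0.36 (0.017). None of the 5 passed in the slope of the ratio, where 4 of 162 miRs, or 2.47%, did, or in the sham slope, where 2 of 162, or 1.23%, did. Unadjusted p was 0.131 or above for each member in both, by limma, and exact permutation gave 0.142 or above.

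Against the naive pool, the members differed widely from each other. miR-30b was far above naive in all 16 operated pools, by a mean log2 difference of 2.97 after IRI (SD 0.33, n = 8 days) and 2.71 after sham surgery (SD 0.54). miR-30a was also above naive in all 16, by 0.95 (SD 0.28) and 1.27 (SD 0.19), as was miR-30c, by 0.52 (SD 0.22) and 0.79 (SD 0.42). miR-30e was above naive in 5 of 8 IRI pools and 8 of 8 sham pools, with means of 0.36 (SD 0.55) and 0.77 (SD 0.38). miR-30d was below naive in 7 of 8 IRI pools, with a mean of -0.27 (SD 0.20), and above it in 5 of 8 sham pools, with a mean of 0.07 (SD 0.12). The median over all detected miRs was 0.20 for IRI and 0.24 for sham.

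The naive pool is 1 sample on an array of its own, so there is no test of these distances. It was labelled with Cy3, as the IRI pools were, so that the distances of the sham pools, labelled with Cy5, also cross the dyes. Its scanner means for the 5 members lay between 626 and 873, where the median of its empty spots was 511, while the same probes had 1011 to 18143 in the IRI pools over empty spots of 186 to 516. The sizes depend on how the naive array is brought to the level of the others. In the authors' processed values miR-30b lay 2.20 above naive after IRI and 1.99 after sham surgery. With median scaling all 5 members lay above naive, by 0.90 to 3.85 after IRI and 1.53 to 4.11 after sham surgery, and miR-30d turned from -0.27 to 1.57 after IRI. By that scaling the median over all detected miRs was -0.21 for IRI and -0.04 for sham. miR-30b had the largest distance from naive among the 5 under all of the 4 settings tried.

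**Figure D5:**
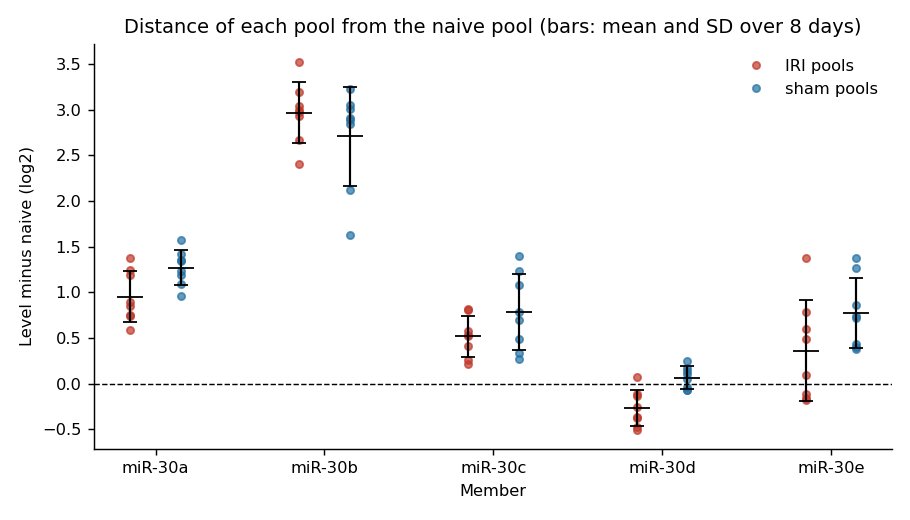
Normalized log2 intensity of each operated pool minus that of the naive pool (vertical axis) for the 5 miR-30 members (horizontal axis), with a point per day for IRI (red) and sham surgery (blue) and black marks for the mean and SD over 8 days. miR-30b lies 1.63 to 3.52 above naive, and miR-30d between -0.51 and 0.25.

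The passenger strands, the other arms of the same hairpins, gave no call in the mean ratio where they were detected. Of the 5 on the array, miR-30a* and miR-30c-2* were above background in all 16 operated pools, miR-30e* in 15, and miR-30b* and miR-30c-1* in 10 and 11. The 3 that were detected had mean log2 IRI/sham ratios of -0.11 for miR-30a* (SE 0.15, adjusted p = 0.6 by limma), -0.41 for miR-30c-2* (SE 0.15, 0.0666) and -0.17 for miR-30e* (SE 0.13, 0.35). miR-30b* and miR-30c-1* did not reach the detection floor and were not tested. Their mean log2 ratios were -0.07, with 7 of 8 days below 0, and -0.24, with 8 of 8.

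Other miRs whose ratios ran most like the mean ratio of the 5 members were miR-29c (r = 0.92), miR-365 (0.90), miR-29a (0.86), miR-203 (0.85) and miR-1 (0.85), over 8 arrays and 157 candidates. The most opposed were miR-672 (-0.98), miR-709 (-0.96) and miR-214 (-0.94), the last a miR of fibroblasts. These are the extremes of a ranking and are given as a description.

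Markers in 3 of 5 lists of kidney cell types also differed between the surgeries in the mean ratio, where 18.5% of all detected miRs passed as higher and 17.9% as lower. Of 9 miRs listed for tubule epithelium 6 were detected, and of these 5 were lower after IRI (miR-192, miR-194, miR-200a, miR-200b and miR-429) and none higher, with a median log2 ratio of -0.63, while miR-200c stood at 0.16 (adjusted p = 0.186 by limma). The summed normalized intensity of all 9 listed miRs, detected or not, was 9960 to 23525 in the IRI pools and 17634 to 27387 in the sham pools. Of these 9, miR-204, miR-215 and miR-141 were not detected. Of 5 leukocyte miRs 3 were detected (miR-150, miR-155 and miR-223). miR-150 and miR-155 were higher, and so was miR-223, which reached the detection floor in IRI pools but in no sham pool and therefore had to be higher there. The list had sums of 1447 to 3266 after IRI against 820 to 1177 after sham surgery, while miR-142-3p and miR-142-5p were not detected. Of 5 smooth muscle and fibroblast miRs 3 were higher, miR-199a-3p, miR-214 and miR-199a-5p, the last again detected through IRI pools alone, while miR-143 and miR-145 each stood at -0.13 and did not pass, with sums of 5660 to 14674 against 4293 to 12912. No erythroid miR (2 of 3 detected) and no endothelial miR (1 of 2 detected) passed in the mean ratio. The part of these shifts in the values of the miR-30 members was not tested. As a reference, miR-21, a miR known for its rise in injured tissue, had a mean log2 IRI/sham ratio of 2.51 and was higher on 8 of 8 days.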

How the data were processed

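Kidney RNA was extracted with the miRNeasy kit, size-fractionated, poly(A)-tailed and tagged for dye staining, per the labels. The authors deposited raw spot intensities (the scanner's mean per spot, not yet normalized) of 9 arrays. They also deposited a linear processed signal for each miR in each sample, and how it was computed is not stated in the sources read here. On the day 5 array, whose headers name neither surgery, the channels were assigned by dye. The members, marker lists and comparisons were chosen with earlier results of these data known. Members and passenger strands were named by family and seed, and the likest miRs by rank of r.

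From the deposited intensities, background was corrected with normexp (limma 3.58.1 in R 4.3.3, offset 50), the 6 spots of a miR were averaged, the channels normalized by loess (weight 0 for controls), and array means quantile-normalized with the naive array. Above background meant over the median of 250 empty spots by 3 median absolute deviations. limma (lmFit, eBayes) was fitted to each array's log2 IRI/sham ratio, or on the log2 level against log2(day), over 162 detected miRs, two-sided, p adjusted by Benjamini-Hochberg and called below 0.05. The pairing of IRI and sham comes from the shared array. Exact permutations were enumerated in Python 3.11.15 with numpy 2.4.6. Fits were tested on simulated data. The number of arrays and the 3 mice per pool limit the precision. Alternatives were the authors' values, subtraction of the empty-spot median, median scaling, the median of the spots, other filters, each day left out, a trended and robust variance, no replicate block, and day in place of log2(day).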

Additional observations from a re-analysis of the deposited data

How the results depend on the processing

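Each surgery and day had 1 pool, so that these results rest on 8 arrays, and no alternative can separate the dyes from the surgeries in a mean ratio. All 5 members were above background in all 16 operated pools, but brightness varied among them, and the naive array was dim. For every member the sham scanner means of days 10 and 30 were the lowest among the sham pools. Those of miR-30e were 197 and 283, against 565 to 1575 on the other days. In the IRI channel, the median over miRs of the SD between spots, as a share of their mean, was 16.7% on day 14 and 12.4% on day 30. On the other days it was 4.18% to 7.45%.

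The mean log2 ratio of miR-30d kept its sign under all alternatives and lost its call with a filter on the mean signal (-0.34, adjusted p = 0.0535 by limma) and without any 1 of days 3, 7, 10, 14, 21 and 30 (0.054 to 0.0779, that without day 10 at -0.30, 0.0662). With 1 day left out the means ran from -0.40 to -0.25 for miR-30a, 0.14 to 0.38 for miR-30b, -0.35 to -0.17 for miR-30c, -0.40 to -0.30 for miR-30d and -0.56 to -0.34 for miR-30e. Calls were gained by miR-30a with the authors' values (-0.45) and median scaling (-0.71), by miR-30c with median scaling (-0.87), and by miR-30e with subtraction of the empty spots (-0.61) and median scaling (-0.63). miR-30b turned to -0.26 with median scaling. That scaling moved the median of all miRs from -0.04 to -0.29. Relative to it miR-30a stood at -0.42 (-0.28 with loess), miR-30c at -0.59 (-0.23), miR-30d at -0.40 (-0.30) and miR-30e at -0.34 (-0.37), so that the call gained by miR-30e came with no larger distance from the other miRs. Without the replicate block, that is, with the pairing on the array ignored, miR-30d had the same mean (-0.34, adjusted p = 0.0144 by limma), 51 miRs passed in the mean ratio and 2 in its slope, and no member changed its call.

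The IRI slope of miR-30e lost its call with no filter (-0.30, adjusted p = 0.0942), with a trended and robust variance (-0.30, 0.0521) and over days (-0.037 per day, 0.226), by limma. With 1 day left out it ran from -0.36 to -0.24. The other IRI slopes were not called. With median scaling they were -0.20, -0.21, -0.18 and -0.15 for miR-30a to miR-30d, and with 1 day left out they ran from -0.13 to -0.049 for miR-30a, -0.13 to 0.086 for miR-30b, -0.019 to 0.012 for miR-30c and -0.11 to 0.0075 for miR-30d. miR-30b turned to 0.0020 over days and miR-30c to 0.011 with subtraction. The ratio slopes ran from -0.15 to 0.064 for miR-30a, -0.049 to 0.30 for miR-30b, -0.14 to 0.14 for miR-30c, -0.13 to -0.013 for miR-30d and -0.26 to 0.057 for miR-30e, and that of miR-30c turned to 0.0066 over days. The sham slopes ran from -0.11 to 0.028, -0.21 to -0.076, -0.14 to 0.12, 0.016 to 0.054 and -0.30 to -0.086 in the same order. That of miR-30a turned to 0.012 with the authors' values, that of miR-30c to -0.050 with these, -0.012 with the median of the spots, -0.15 with median scaling and -0.0080 over days, and that of miR-30d to -0.050 with median scaling. None of these was called.

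The count of miRs called in the mean ratio was 59, 100 with no filter and 26 to 59 with 1 day left out. The lowest was without day 21, where 18 passed as higher and 8 as lower. Median scaling called 19 higher and 47 lower, against 30 and 29. The count was 14 in the IRI slope, 9 with subtraction, 2 with no filter, 22 without day 10 and 2 to 22 with 1 day left out. It was 4 in the ratio slope, 8 with the authors' values, 0 with no filter, 14 over days and 0 to 19 with 1 day left out, 19 being without day 1. It was 2 in the sham slope, 1 with the authors' values, no filter or robust variance, 5 with subtraction, 0 with median scaling, 4 without day 10 and 0 to 4 with 1 day left out.

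Levels above naive moved most with median scaling, to 2.30 (IRI) and 3.00 (sham) for miR-30a, 3.85 and 4.11 for miR-30b, 3.13 and 4.01 for miR-30c, 1.57 and 2.26 for miR-30d, and 1.53 (sham) for miR-30e. With the authors' values they were 2.20 and 1.99 for miR-30b, 0.90 (IRI) for miR-30c, and -0.52 and -0.067 for miR-30d. The 4 close pairs of members passed in all 3 alternatives for Pearson's r. Among the other 6 pairs the sign turned in 7 cases, to -0.11 for miR-30a with miR-30b (authors' values), 0.63 and 0.32 for miR-30a with miR-30c, 0.55 and 0.073 for miR-30b with miR-30d, and 0.59 and 0.16 for miR-30c with miR-30d, with median scaling and without day 10 in that order. The cause of these changes was not tested.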
